A study of Mus musculus with 13 samples.

Results

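Whole-liver RNA was compared between alcohol-fed ASAH+ mice that received doxycycline (Dox) and alcohol-fed ASAH+ mice that did not. The mice were chosen by the column names of the count table, which gave 5 ASAH+ animals with Etoh-Dox and 4 with Etoh alone, together 9 of the 13 mice of the series. Dox switches on a ceramidase, ASAH1, in hepatocytes of these mice, and the comparison asks how liver RNA differs between the induced and the uninduced state of 1 genotype. All 13 mice carried the transgenes Rosa26-loxP-stop-loxP-rtTA, a Dox-dependent activator that stays silent until Cre removes a stop cassette, and Albumin-Cre, which removes it in hepatocytes. Both ASAH+ groups also carried TRE-ASAH1, the ASAH1 sequence behind the element that the activator binds. The remaining 4 mice, ASAH- littermates on Etoh-Dox, lacked TRE-ASAH1 and are given for reference because they received Dox without an inducible ASAH1. The mice were females 8 to 14 weeks old, matched by weight, and every group was pair-fed a liquid diet with 28% of calories from ethanol (Etoh) over 4 weeks. The dose of Dox was 200 mg/l. Dox and the ASAH1 transgene were switched together between the ASAH+ groups, so that their contributions cannot be told apart by this comparison alone.

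The sample titles of all 9 ASAH+ mice state the opposite Dox treatment to the descriptions, the induction labels and the column names, and the groups here follow the latter. Counts per mouse totalled 23226459 to 35358711 in the mice on Etoh-Dox and 17819486 to 24454043 in those on Etoh. The libraries were deeper with Dox on the whole, and levels are therefore given as CPM, counts scaled to a common library total with TMM normalization factors. The tissue label was checked against hepatocyte markers. Alb, the plasma protein albumin, ranged from 64670.0 to 99645 CPM with Dox and from 74310.0 to 100150.0 CPM without it, and all 10 hepatocyte markers passed the filter on low counts. Of these, 7 had a lower mean with Dox, beside 6730 of the 14317 genes tested, 3 with an unadjusted p under 0.05 in edgeR and 2 without overlap, and their median log2 fold change was -0.13 (0.068 in the ASAH- mice).

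Ceramides are sphingolipids built from a sphingoid base and a fatty acid, and they accumulate in the liver with alcohol feeding and with insulin resistance. Asah1 encodes acid ceramidase, which takes ceramide apart into these building blocks. As a glycoprotein it is made and folded in the endoplasmic reticulum (ER) before it is sorted to lysosomes, and the ER answers a load of unfolded protein by raising chaperones and degradation factors.

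Of 14317 genes tested, 2 rose with Dox at an adjusted p under 0.1 in edgeR's quasi-likelihood test, 0.014% of the genes, and 0 fell. They were Asah1 and Sod1. At an unadjusted p under 0.05, 579 genes were higher (4.04%) and 464 were lower (3.24%). DESeq2 on the 9 ASAH+ mice, with its own filter, called 51 of 13768 genes higher (0.37%) and 62 lower (0.45%) at the same adjusted threshold, and limma-voom called the same 2 genes as edgeR. On all 13 mice DESeq2's filter left an adjusted p for 3198 genes, of which 17 were called higher and 78 lower. Sdf2l1, Derl3, Cavin2 and Slc39a5, described below, were not among the 3198 genes. Besides the tests, the number of genes whose 2 groups did not overlap was taken: all 5 mice with Dox lay above all 4 without it for 156 genes (1.09%) and below them for 213 genes (1.49%). Below, a gene other than Asah1 and Sod1 is described by its levels, and none of them passed the edgeR threshold between the ASAH+ groups.

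Asah1 (ENSMUSG00000031591, chr8:41340197-41374773, minus strand, GRCm38) was read first, since it checks the labels. Its level was 10306, 9660.5, 15122, 12715 and 15923 CPM in mice 1 to 5 on Etoh-Dox. In mice 1 to 4 on Etoh it was 46.7, 44.2, 46.7 and 48.2 CPM, and in the ASAH- mice on Etoh-Dox 48.7, 40.01, 53.7 and 54.95 CPM. Every mouse whose column name carries Dox and the transgene was high, and the other 8 were at the level of the resident gene, so the column names and not the titles match the gene's level. The means were 12745 ± 2794 CPM with Dox and 46.5 ± 1.70 CPM without it (SD, n = 5 and 4), a 274-fold difference, with a log2 fold change of 8.10 ± 0.21 (SE, adjusted p = 1.13e-11, edgeR). The two-sided exact permutation p was 0.00794, the smallest value that 5 against 4 mice can give. Among the 5 induced mice the level was higher in mice 3, 4 and 5 than in mice 1 and 2. Reads of the transgene and of the resident gene are counted together in the table.

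Sod1 (ENSMUSG00000022982, chr16:90220754-90226329, plus strand), which encodes the cytosolic copper and zinc superoxide dismutase, was at 802, 854, 753, 845 and 973 CPM in the mice on Etoh-Dox. It was at 398, 413, 450.2 and 407 CPM in the mice on Etoh. The ASAH- mice on Etoh-Dox had 509, 604, 484 and 505 CPM, between the ASAH+ groups and overlapping neither. The mean was 845 ± 81.8 CPM with Dox and 417 ± 22.9 CPM without it (SD, n = 5 and 4). The log2 fold change was 1.02 ± 0.093 (SE, adjusted p = 0.000197, edgeR), higher in 5 of 5 mice, with a permutation p of 0.00794 (exact, two-sided). The ASAH- mice differed from the ASAH+ mice on Etoh by a log2 fold change of 0.33 (adjusted p = 0.389, edgeR), and the ASAH+ mice on Etoh-Dox differed from the ASAH- mice by 0.69 (adjusted p = 0.0212, edgeR). These contrasts share mice with each other. The RefSeq promoter of Sod1 (chr16:90220512-90220811, plus strand, GRCm38.p6, 250 bases before to 50 after the start) is shown because the gene is, beside the induced one, the only one past the threshold; capitals mark a match to the core of the antioxidant response element, TGAC, any 3 bases, then GC, searched on both strands.
Sod1: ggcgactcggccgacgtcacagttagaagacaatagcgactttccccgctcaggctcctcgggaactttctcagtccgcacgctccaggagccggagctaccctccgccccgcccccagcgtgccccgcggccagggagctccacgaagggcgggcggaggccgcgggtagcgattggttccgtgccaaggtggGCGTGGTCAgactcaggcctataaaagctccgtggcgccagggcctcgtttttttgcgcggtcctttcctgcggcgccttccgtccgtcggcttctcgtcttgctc
The same letters occurred in 12.4% of 32851 mouse promoters of this length, and in 11 of 33 promoters (33.3%) of listed NRF2 targets and glutathione enzymes.

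**Figure D1:**
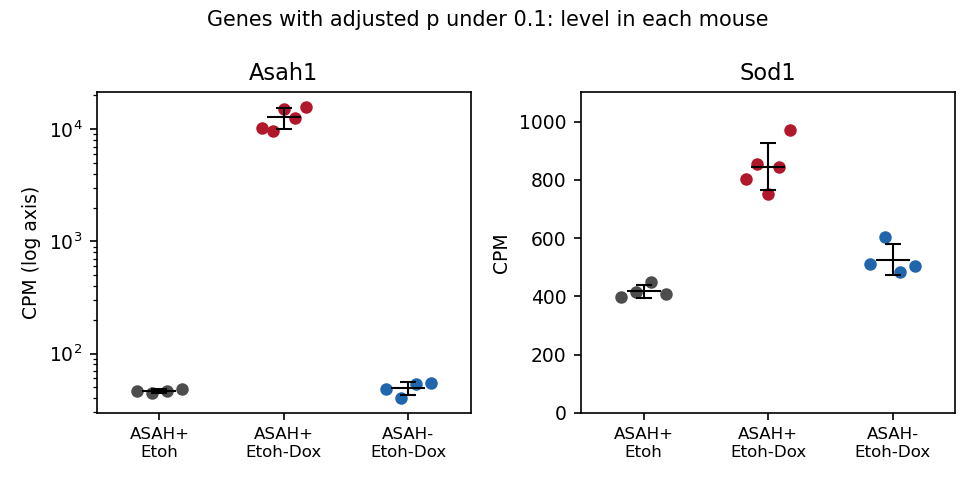
Level of Asah1 (CPM, log axis) and Sod1 (CPM, linear axis) in each of 13 mice by group; points are mice, and the bar with whiskers is the mean with 1 SD. The 5 induced ASAH+ mice lie above all other mice for both genes, with the ASAH- mice above the ASAH+ mice on Etoh for Sod1.

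Other genes of oxidant defence were read beside Sod1. Of 21 superoxide dismutases and peroxide scavengers tested, 1, Sod1, rose and 3 were higher at an unadjusted p under 0.05, beside 4.04% of all genes tested. The median log2 fold change was 0.025 beside 0.013 over all genes tested. Cat, which encodes catalase and was the most abundant of them, had 2176 ± 173 CPM with Dox and 2047 ± 92.2 CPM without it (SD, n = 5 and 4). Prdx4, the peroxiredoxin of the ER, had a log2 fold change of 0.25 (unadjusted p = 0.0367, edgeR). Among 31 NRF2 targets and glutathione enzymes, 1 was higher and 2 were lower at that unadjusted threshold. Their log2 fold changes ran from -0.43 to 1.30, the latter in Gsta1, a glutathione transferase, with an unadjusted p of 0.324 in edgeR.

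Several genes listed under protein folding in the ER had a higher level in the induced mice. Of 24 ER chaperones and unfolded protein response genes tested, 20 had a higher mean with Dox, beside 7587 of all 14317 genes tested. At an unadjusted p under 0.05, 5 were higher and 1 lower, beside 4.04% and 3.24% of all genes tested. Without overlap 2 were higher, Nucb2 and Sdf2l1, beside 1.09% of all genes tested. The list, Nucb2 included, was written with earlier results of these data known. The median log2 fold change was 0.20, and in ASAH- mice on Etoh-Dox, against the same ASAH+ mice on Etoh, it was -0.017. Nucb2, a calcium-binding protein of the secretory pathway, was at 2.87, 3.10, 7.44, 5.45 and 8.11 CPM with Dox. Without Dox it was at 2.39, 1.55, 1.67 and 2.14 CPM, below every mouse with Dox. The ASAH- mice were at 2.37, 1.69, 2.49 and 2.00 CPM, the level of the ASAH+ mice on Etoh. Its log2 fold change was 1.47 ± 0.31 (SE, adjusted p = 0.346, edgeR), and 0.14 in the ASAH- mice. Sdf2l1, which assists folding by the chaperone BiP, was at 11.4, 7.78, 22.6, 19.1 and 15.3 CPM with Dox and at 6.12, 5.33, 6.86 and 7.45 CPM without it, again with no overlap. The ASAH- mice had 12.6, 11.5, 7.01 and 5.07 CPM, and mice 1 and 2 of them lay above every ASAH+ mouse on Etoh and above mice 1 and 2 with Dox. Its log2 fold change was 1.24 ± 0.32 (SE, adjusted p = 0.473, edgeR; 0.00433 by DESeq2 on the 9 mice), and 0.49 in the ASAH- mice. The disulfide isomerases Pdia6 and Pdia4, named after their values were seen, had log2 fold changes of 0.65 and 0.46, against -0.047 and 0.003 in the ASAH- mice. The most abundant member, P4hb, had a log2 fold change of -0.034.

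Derl3, a channel component of ER-associated degradation, was the most uneven of these genes. Its level was 1.60, 0.648, 25.6, 13.6 and 16.3 CPM in mice 1 to 5 on Etoh-Dox and 1.01, 0.569, 0.742 and 0.116 CPM in the mice on Etoh. Mice 3, 4 and 5 were high, whereas mice 1 and 2 lay in or near the range without Dox, so the groups overlapped. The log2 fold change was 4.19 ± 1.06 (SE, adjusted p = 0.473, edgeR; permutation p = 0.0635, exact and two-sided). DESeq2 on the 9 mice gave an adjusted p of 0.0144. The ASAH- mice had 0.319, 1.12, 0.0815 and 0.643 CPM. Mice 3, 4 and 5 were also those with the most Asah1 and the most Nucb2 and Sdf2l1, and they had the lowest log2 ratio of the clock genes Dbp to Arntl, at -1.66, 0.152 and 2.72 against 6.76 and 6.91 in mice 1 and 2. ASAH- mice 1 and 3 and ASAH+ mouse 4 on Etoh, none with induced Asah1, also had a ratio below that of mouse 5, at -0.962, 1.82 and 1.6. Their Derl3 was at 0.319, 0.0815 and 0.116 CPM and their Nucb2 at 2.37, 2.49 and 2.14 CPM. For both genes these values lay below all 5 mice with Dox. For Sdf2l1, ASAH- mouse 1 lay above mice 1 and 2 with Dox, as given above. With the ratio as a covariate over all 13 mice, the log2 fold change was 3.24 for Derl3, 1.25 for Nucb2 and 1.02 for Sdf2l1 (adjusted p = 0.436, 0.235 and 0.268, edgeR). Among the 5 induced mice alone the level of Asah1 and the ratio differed together, and the part of each there was not tested. Of 21 ER-associated degradation genes, Derl3 was the only one with an unadjusted p under 0.05. Sel1l, the scaffold of an ER ubiquitin ligase, was at 167, 153, 195, 183 and 184 CPM with Dox and 171, 172, 161 and 159 CPM without it. Herpud1, the most abundant, had a log2 fold change of 0.18.

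The ER stress element, CCAAT, any 9 bases, then CCACG on either strand, was searched in promoters because several members were higher in the same mice. It was found in 0.119% of the 32851 promoters and in 7 of 20 promoters of the listed ER chaperone genes, Pdia6 included. The promoters of Sdf2l1, Nucb2 and Pdia4 had no match in the window. Those of Derl3 (chr10:75893148-75893447, plus strand) and Pdia6 (chr12:17266339-17266638, plus strand; RefSeq, GRCm38.p6) are printed as examples with the match in capitals.
Derl3: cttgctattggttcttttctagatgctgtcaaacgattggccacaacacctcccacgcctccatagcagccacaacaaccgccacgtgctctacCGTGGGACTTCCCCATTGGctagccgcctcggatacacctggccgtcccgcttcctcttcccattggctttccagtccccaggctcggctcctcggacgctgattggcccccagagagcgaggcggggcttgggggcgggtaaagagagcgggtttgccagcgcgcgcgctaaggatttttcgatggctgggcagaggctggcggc
Pdia6: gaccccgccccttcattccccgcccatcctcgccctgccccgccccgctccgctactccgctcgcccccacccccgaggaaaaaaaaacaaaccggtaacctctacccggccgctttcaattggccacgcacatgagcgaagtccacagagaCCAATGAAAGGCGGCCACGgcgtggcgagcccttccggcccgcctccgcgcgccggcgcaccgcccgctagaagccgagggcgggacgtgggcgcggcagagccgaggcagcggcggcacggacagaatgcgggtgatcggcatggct
In Derl3 the match lies on the reverse strand, and its first base is at position -156 from the start site.

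Other enzymes of ceramide metabolism differed little. Among the other ceramidases, 4 of 5 were tested and 0 passed an unadjusted p under 0.05 in either direction in edgeR; DESeq2 on the 9 mice called 0. Asah2, the neutral ceramidase, was at 27.1 ± 2.34 CPM with Dox and 27.5 ± 1.28 CPM without it (SD, n = 5 and 4). Of 29 ceramide and sphingolipid enzymes tested, 1 was higher and 2 were lower at an unadjusted p under 0.05, and the median log2 fold change was -0.014. Ormdl1, a regulator of serine palmitoyltransferase, had a log2 fold change of 0.25, Ugcg, the glucosylceramide synthase, of -0.33, and Sgms1, a sphingomyelin synthase, of -0.36. Of the lysosomal genes, 1 of 40 was lower at that threshold and 0 were higher, and of 33 autophagy and AMPK genes 0 passed it in edgeR or were called by DESeq2 on the 9 mice.

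Most urea cycle genes, and Mat1a of methyl metabolism, were lower with Dox. In the urea cycle, which turns ammonia into urea in periportal hepatocytes, 9 of 10 genes had a lower mean and 7 were lower at an unadjusted p under 0.05, beside 3.24% of all genes tested. The median log2 fold change was -0.47 with Dox in ASAH+ mice, and -0.19 in ASAH- mice on Etoh-Dox against the same controls. None of the 10 passed the edgeR threshold.

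Cps1, carbamoyl phosphate synthetase of the entry step, was at 3857, 4228, 2459, 4011 and 3929 CPM with Dox, mouse 3 being the lowest. Without Dox it was at 5798, 4180.5, 6808 and 7170.3 CPM, and mouse 2 of that group lay within the range of the mice with Dox. The log2 fold change was -0.70 ± 0.17 (SE, adjusted p = 0.473, edgeR), and -0.39 in the ASAH- mice. Gls2, Ass1, Slc25a15 and Asl, named after their values were seen, had log2 fold changes of -0.46, -0.43, -0.70 and -0.48, and Oat, ornithine aminotransferase, of -0.52. Otc was the nearest to no difference among the classical enzymes, at -0.077.

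Mat1a makes S-adenosylmethionine, the methyl donor, in hepatocytes. Its level was 3570.1, 4033, 3750.2, 3816 and 3529.8 CPM with Dox and 5573, 4296, 6037 and 6321 CPM without it, so that all 5 mice with Dox were below the other 4. In ASAH- mice on Etoh-Dox it was 5394, 4967, 5198 and 3948 CPM. The log2 fold change was -0.57 ± 0.12 (SE, adjusted p = 0.346, edgeR), with a permutation p of 0.00794 (exact, two-sided). Without ASAH+ mouse 2 on Etoh, the lowest of its group, edgeR called Mat1a. Nnmt, which spends the methyl donor on nicotinamide, was at 76.01 ± 21.1 CPM with Dox and 147 ± 49.8 CPM without it (SD, n = 5 and 4). Over the 19 genes of the methionine and one-carbon cycle, 3 were lower and 1 higher at an unadjusted p under 0.05. Over all genes tested the shares were 3.24% and 4.04%. The median log2 fold change of the 19 genes was -0.11.

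**Figure D2:**
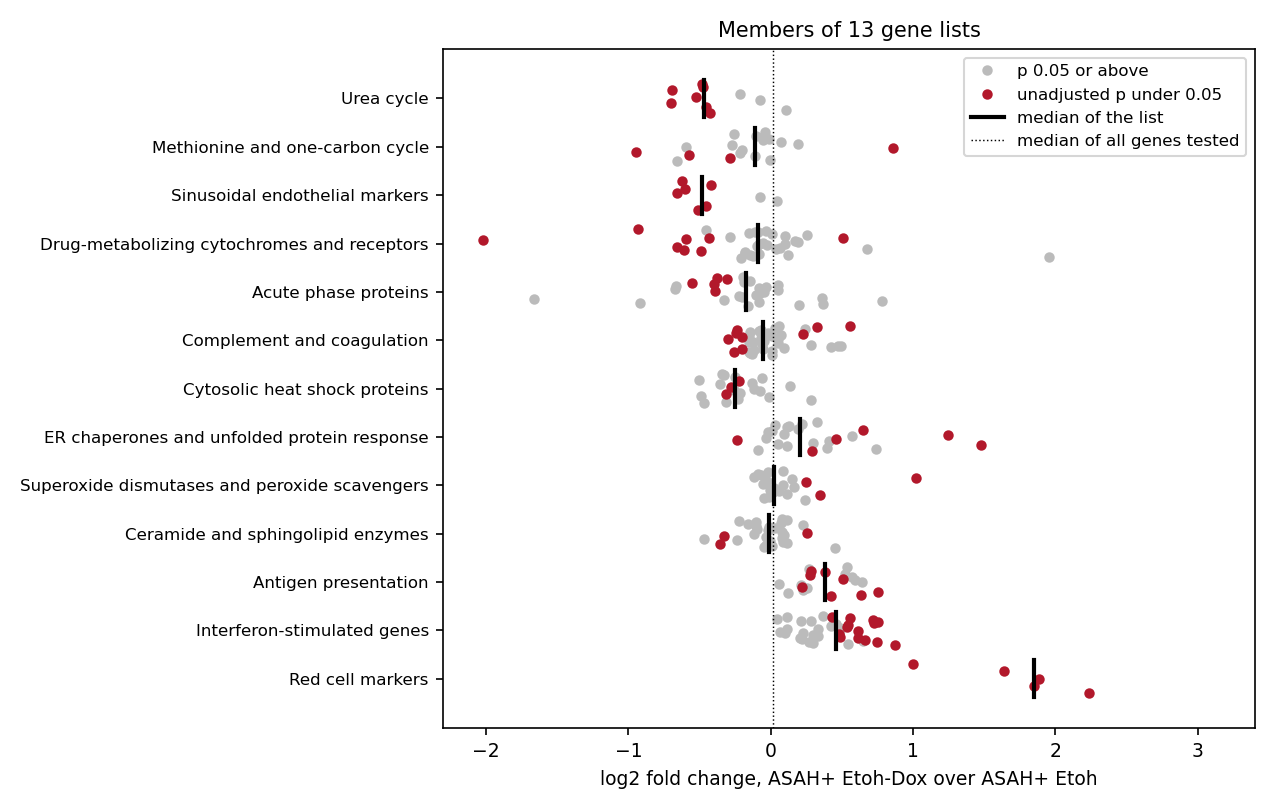
Log2 fold change of each tested member of 13 gene lists, ASAH+ mice with Dox over those without it; red points have an unadjusted p under 0.05 in edgeR, thick bars are list medians, and the dotted line is the median of all genes tested. Urea cycle and sinusoidal endothelial genes lie to the left, with medians of -0.47 and -0.48, and interferon-stimulated and red cell genes to the right, with medians of 0.46 and 1.85.

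Several secreted proteins and transporters of hepatocytes were lower as well. Of 28 acute phase genes tested, 22 had a lower mean, beside 6730 of all 14317 genes tested. At an unadjusted p under 0.05, 5 were lower and 0 higher, beside 3.24% and 4.04% of all genes tested. The median log2 fold change was -0.18 (-0.19 in the ASAH- mice). Itih4, an inter-alpha-trypsin inhibitor chain, was at 3548, 2920.5, 3309.6, 3201 and 3216 CPM with Dox. It was at 4456, 4396, 4316 and 3880.1 CPM without Dox, and at 3225, 3305, 3429 and 2792 CPM in the ASAH- mice, which were thus as low as the ASAH+ mice on Etoh-Dox. Its log2 fold change was -0.40 ± 0.083 (SE, adjusted p = 0.346, edgeR). Serpina3n, a protease inhibitor, had 501 ± 61.97 CPM with Dox and 736 ± 109 CPM without it (SD, n = 5 and 4). Of 39 complement and coagulation genes, 6 were lower and 3 higher at the unadjusted threshold, beside 3.24% and 4.04% of all genes tested. With no overlap between groups 5 were lower, beside 1.49% of all genes tested. Hc, complement C5, had a log2 fold change of -0.30, C3 of -0.24, and Kng2, a kininogen whose transcript shares 30.6% of its 31-base words with Kng1, of -0.26.

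Among 25 genes of apolipoproteins and VLDL assembly, 4 were lower and 1 higher at an unadjusted p under 0.05. Over all genes tested the shares were 3.24% and 4.04%. Apob, the structural protein of VLDL, was at 5805, 4906, 5892, 5726 and 5996 CPM with Dox and 6442, 7245, 6633 and 7172 CPM without it, a small difference without overlap (log2 fold change -0.28 ± 0.078, SE). In ASAH- mice on Etoh-Dox it was 5926, 5806, 5290.3 and 5627 CPM, as low as in the induced mice. Apoc2, an activator of lipoprotein lipase, had a log2 fold change of -0.43, and 78.8% of its words occur in Gm44805. Of 35 drug-metabolizing cytochromes and receptors, 7 were lower and 1 higher at that threshold, beside the same shares of all genes tested. Cyp2c37 was at 998 ± 177 CPM with Dox and 1576 ± 332 CPM without it (SD, n = 5 and 4), with no overlap, and 47.4% of its words are shared with other genes. Cyp3a13 and Cyp3a11 had log2 fold changes of -0.60 and -0.49, and of -0.47 and -0.53 in the ASAH- mice. Of 21 genes of bile acid synthesis and transport 3 were lower and 0 higher, among them the uptake carrier Slc10a1 (-0.43) and the phospholipid exporter Abcb4 (-0.30). Of 26 genes of glucose handling 5 were lower, Tkfc (-0.76) among them. Gjb2, a gap junction protein of hepatocytes, had 231 ± 29.5 CPM with Dox and 328 ± 19.5 CPM without it (SD, n = 5 and 4).

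**Figure D3:**
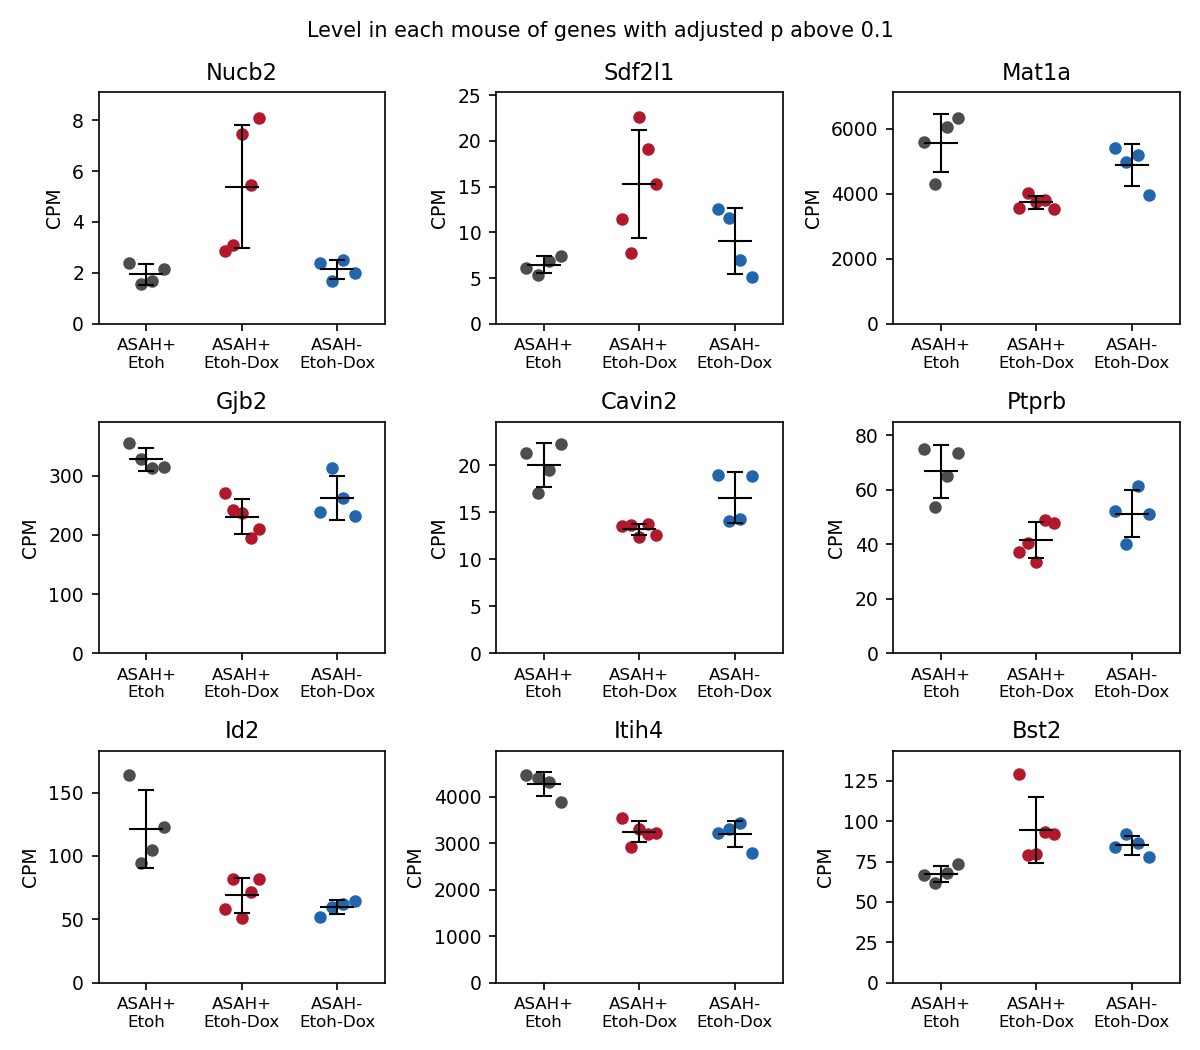
Level (CPM, linear axes from 0) in each of 13 mice of 9 genes whose adjusted p was above 0.1; points are mice, and the bar with whiskers is the mean with 1 SD. Mat1a, Gjb2, Cavin2, Ptprb, Id2 and Itih4 are lower, and Nucb2, Sdf2l1 and Bst2 higher, in all 5 ASAH+ mice with Dox than in the 4 without it; the ASAH- mice are as low as the former for Id2 and Itih4 and as low as the latter for Nucb2.

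Markers of the sinusoidal endothelium, the fenestrated lining of the liver's capillaries, were lower with Dox. Of 8 markers tested, 6 were lower at an unadjusted p under 0.05, beside 3.24% of all genes tested. Without overlap 2 were lower, beside 1.49% of all genes tested. The median log2 fold change was -0.48 (-0.11 in the ASAH- mice). Fcgr2b, an Fc receptor and the most abundant marker, was at 30.5, 34.2, 26.2, 36.4 and 31.7 CPM with Dox and 56.7, 36.6, 49.2 and 50.6 CPM without it. The groups did not overlap, by a narrow margin set by mouse 2 on Etoh. Oit3 had a log2 fold change of -0.62; Clec4g, Kdr, Pecam1 and Lyve1, named after their values were seen, had -0.51, -0.45, -0.42 and -0.66. Stab2 and Cdh5, also endothelial, had 0.044 and -0.074, so the markers did not move as a block. The summed level of the 8 markers was 175, 185, 147, 210.0 and 181 CPM with Dox and 270.3, 192, 241 and 247 CPM without it, so the groups overlapped, and no marker was at 0. In bulk liver RNA, fewer cells of a type and less RNA per cell cannot be told apart.

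Cavin2 and Ptprb, endothelial genes outside that list, were lower too. Cavin2, a coat protein of caveolae, was at 13.5, 13.6, 12.4, 13.7 and 12.6 CPM with Dox and at 21.3, 17.00, 19.5 and 22.2 CPM without it. The 5 mice with Dox were close together and below the other 4, and the ASAH- mice had 18.9, 14.02, 14.3 and 18.9 CPM. Its log2 fold change was -0.60 ± 0.11 (SE, adjusted p = 0.345, edgeR; 3.32e-05 by DESeq2 on the 9 mice). Ptprb, the vascular endothelial phosphatase, was at 37.2, 40.3, 33.4, 48.8 and 47.6 CPM with Dox and at 75.1, 53.8, 65.00 and 73.4 CPM without it. Its log2 fold change was -0.69 ± 0.14 (SE, adjusted p = 0.346, edgeR). The ASAH- mice had 52.3, 40.1, 61.4 and 51.2 CPM, a log2 fold change of -0.38. Znrf3, a Wnt target of pericentral hepatocytes, whose Wnt signal comes from central vein endothelium, had a log2 fold change of -0.36, and of -0.30 in the ASAH- mice, which did not overlap the same controls. Of the 17 pericentral Wnt targets 15 had a lower mean, beside 6730 of all 14317 genes tested. At an unadjusted p under 0.05, 2 were lower, beside 3.24% of all genes tested. The median was -0.23 (0.03 in the ASAH- mice). Cyp2e1, the microsomal ethanol oxidase and the most abundant of them, had 7083 ± 733 CPM with Dox and 8306 ± 1863 CPM without it (SD, n = 5 and 4). Of 11 stellate cell markers, 0 passed the unadjusted threshold in edgeR and 0 were called by DESeq2 on the 9 mice.

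Interferon-stimulated genes were higher in the ASAH+ mice with Dox. All 37 had a higher mean, beside 7587 of all 14317 genes tested. At an unadjusted p under 0.05, 14 were higher, beside 4.04% of all genes tested. Without overlap 1 was higher, beside 1.09% of all genes tested. At the adjusted threshold, edgeR and DESeq2 on the 9 mice called 0 of the 37, and DESeq2 on all 13 mice called Bst2. The median log2 fold change was 0.46 in ASAH+ mice and 0.63 in ASAH- mice on Etoh-Dox; both use the same 4 ASAH+ mice on Etoh, whose levels enter both values, and no ASAH- mice without Dox were measured. Bst2, a tethering factor of enveloped viruses, was at 129, 78.8, 79.7, 93.2 and 92.3 CPM with Dox. Without Dox it was at 66.6, 61.5, 68.2 and 73.7 CPM, and in the ASAH- mice at 84.1, 91.8, 86.5 and 77.9 CPM. The log2 fold change was 0.49 ± 0.13 (SE, adjusted p = 0.473, edgeR; 0.04 by DESeq2 on all 13 mice), mouse 1 being the highest. Ifi27l2a had a log2 fold change of 0.88, and Ifit3 and Irf7, named after their values were seen, of 0.75 and 0.72. Iigp1, the most abundant, had 0.22. Gbp10, a guanylate-binding GTPase, was at 24.5 ± 9.29 CPM with Dox and 9.28 ± 2.80 CPM without it (SD, n = 5 and 4), and 80.8% of its words occur in Gbp6. In the ASAH- mice Gbp10 was at 22.6 ± 9.33 CPM (SD, n = 4).

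The core of the interferon-stimulated response element, GAAA, any 2 bases, then GAAA on either strand, was searched because these genes were higher together. It was present in 3.44% of the 32851 promoters and in 18 of 29 promoters (62.1%) of listed genes; Ifit3 (chr19:34583279-34583578, plus strand) and Bst2 (chr8:71537423-71537722, minus strand; RefSeq, GRCm38.p6) are shown with matches in capitals.
Ifit3: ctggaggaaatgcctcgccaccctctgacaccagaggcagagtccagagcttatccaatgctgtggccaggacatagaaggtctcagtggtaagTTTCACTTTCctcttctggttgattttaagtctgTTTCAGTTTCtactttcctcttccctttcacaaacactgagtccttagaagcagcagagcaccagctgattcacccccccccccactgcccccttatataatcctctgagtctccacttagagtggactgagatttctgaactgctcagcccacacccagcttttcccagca
Bst2: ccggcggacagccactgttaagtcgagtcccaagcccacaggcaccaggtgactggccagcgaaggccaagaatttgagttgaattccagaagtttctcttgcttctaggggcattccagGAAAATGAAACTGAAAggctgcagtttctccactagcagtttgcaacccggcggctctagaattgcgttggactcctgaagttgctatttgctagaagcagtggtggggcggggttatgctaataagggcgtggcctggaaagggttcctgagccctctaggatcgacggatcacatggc
Each held 2 matches, which overlap in Bst2, and the promoter of Irf7 had no match in the window.

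Antigen presentation genes were likewise higher. All 19 had a higher mean with Dox, beside 7587 of all 14317 genes tested. At an unadjusted p under 0.05, 8 were higher, beside 4.04% of all genes tested. The median log2 fold change was 0.38 (0.42 in the ASAH- mice). The peptide transporter genes Tap1 and Tap2 had log2 fold changes of 0.51 and 0.38. H2-Q10, a secreted class I molecule made by hepatocytes and outside that list, was at 1508, 1444, 1465, 1486 and 1467 CPM with Dox and 1227, 1119.9, 1138 and 1238 CPM without it. It did not overlap, and the ASAH- mice had 1452, 1649, 1556 and 1381 CPM, but 30.3% of its words are shared with other genes, mostly H2-Q7. Markers of immune cells were read by type. All 6 B and plasma cell markers had a higher mean, Ighm with a log2 fold change of 1.09 and without overlap, with summed levels of 7.13, 16.1, 7.30, 12.3 and 8.41 CPM with Dox and 2.53, 7.20, 6.21 and 6.07 CPM without it. Of the T and NK markers 5 of 6 were tested and 4 had a higher mean; Nkg7 had a log2 fold change of 0.88, or 0.45 without mouse 2 with Dox, and Cd4, the most abundant, of -0.12. All 8 Kupffer cell and macrophage markers had a higher mean with 0 at an unadjusted p under 0.05 in edgeR and 0 called by DESeq2 on the 9 mice, and their most abundant gene, Cd5l, was at 177, 182, 90.7, 165 and 92.02 CPM with Dox and 122, 93.4, 99.3 and 109.6 CPM without it. Neutrophil markers were near the limit of detection, with 4 of 6 under 10 counts in every mouse, and both tested ones had a lower mean (median log2 fold change -0.48). The part of immune cells in the interferon-stimulated and antigen presentation genes was not tested.

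Red cell genes were higher with Dox in every mouse. All 5 were higher without overlap, beside 1.09% of all genes tested. DESeq2 on the 9 mice called all 5 higher, beside 0.37% of its genes, whereas edgeR called 0 of them. Hbb-bs, the adult beta globin and the most abundant, was at 289.9, 109, 368, 141 and 244 CPM with Dox and 62.8, 69.5, 74.3 and 89.2 CPM without it. In ASAH- mice on Etoh-Dox it was 102, 315, 699 and 91.9 CPM. The spread among mice with Dox was wide and that among mice without it narrow. The log2 fold change was 1.64 ± 0.58 (SE, adjusted p = 0.568, edgeR; 5.04e-05 by DESeq2 on the 9 mice and 0.126 on all 13). The alpha globins Hba-a1 and Hba-a2 share most of their transcript and are read together: their summed level was 324, 103, 386, 178 and 328 CPM with Dox and 56.7, 69.2, 79.5 and 82.6 CPM without it, 3.66 times higher. The summed level of all 5 red cell genes was 689, 240.4, 870.1, 355 and 646 CPM with Dox and 135, 159.6, 174 and 192 CPM without it, and 231, 751, 1712 and 215 CPM in the ASAH- mice. Blood held in the liver was not measured, and its part in the other results was not tested.

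**Figure D4:**
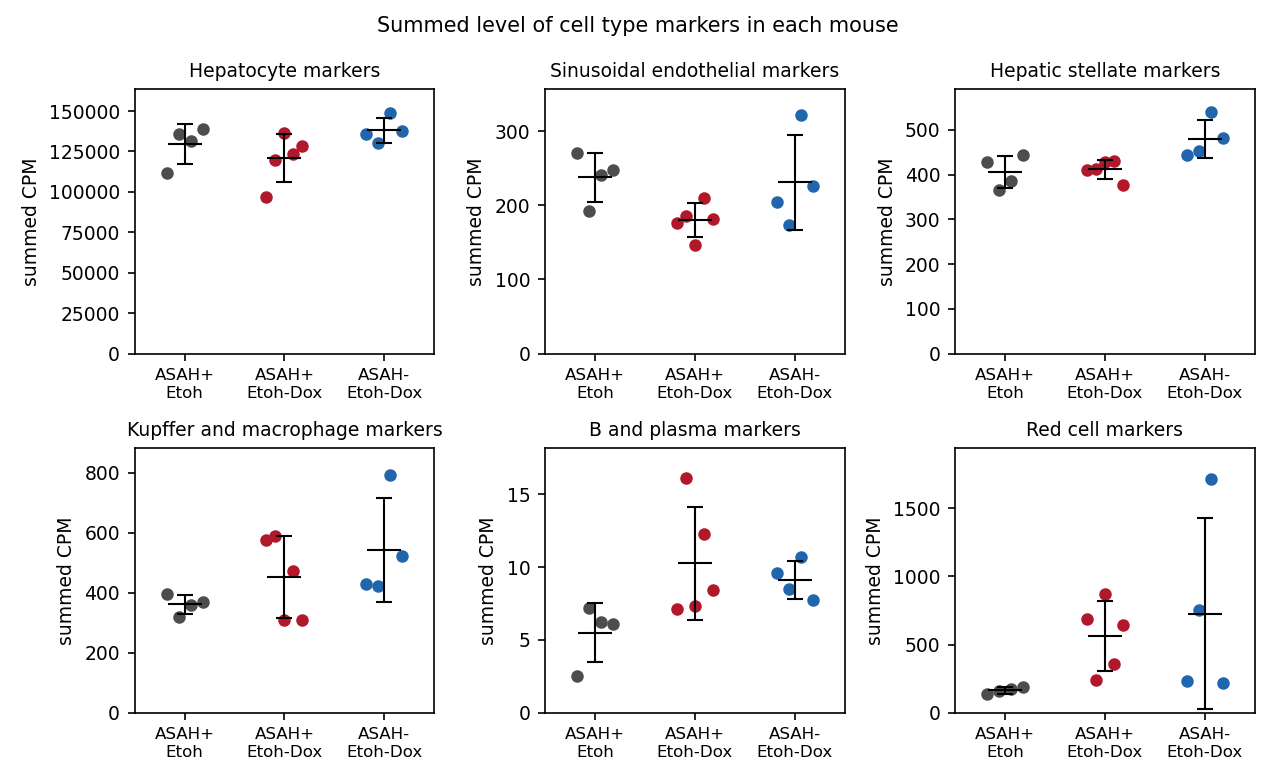
Summed level (CPM, linear axes from 0) of 6 lists of cell type markers in each of 13 mice; points are mice, and the bar with whiskers is the mean with 1 SD. Red cell markers are higher in each of the 5 ASAH+ mice with Dox than in the 4 without it, while the other lists overlap between these groups.

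The mitochondrially encoded genes raised a question of counting. Of 13 tested, 5 were higher at an unadjusted p under 0.05, beside 4.04% of all genes tested. Without overlap 3 were higher, beside 1.09% of all genes tested. mt-Co2, a subunit of cytochrome c oxidase (ENSMUSG00000064354, chrM:7013-7696), was at 1652, 1188, 1194, 1306 and 1585 CPM with Dox and at 758, 772, 892 and 558 CPM without it, a log2 fold change of 0.89 ± 0.21 (SE, adjusted p = 0.417, edgeR). The ASAH- mice on Etoh-Dox had 2750.5, 1813, 2570.3 and 1278 CPM (log2 fold change 1.50, adjusted p = 0.0799, edgeR), and 3 of the 4 lay above every induced mouse. However, 99.5% of its 31-base words lie also in Gm28661, so reads cannot be assigned to 1 of them with certainty. The sum of both was 9049, 8585, 9763, 9332 and 8881 CPM with Dox and 7484, 6673, 8063 and 8564 CPM without it, 1.19 times higher where mt-Co2 alone was 1.86 times higher. mt-Co3, with 99.9% of its words in Gm28437, had a log2 fold change of 0.42, and its sum with that copy was 1.17 times higher. In the ASAH- mice mt-Co3 had 0.74 (adjusted p = 0.0633, edgeR). The mean sum with the copy was 9902 CPM there and 8387 CPM in the ASAH+ mice on Etoh. Gm28438, which shares 99.0% of its words with mt-Nd3, had 0.46, and its sum with that gene was 1.38 times higher, as was Gm28438 alone, without overlap. mt-Co1, the most abundant, had -0.12. Mitochondrial genes took 7.30, 7.59, 7.35, 7.50 and 6.83% of counts with Dox and 6.35, 5.76, 6.88 and 7.22% without it.

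**Figure D5:**
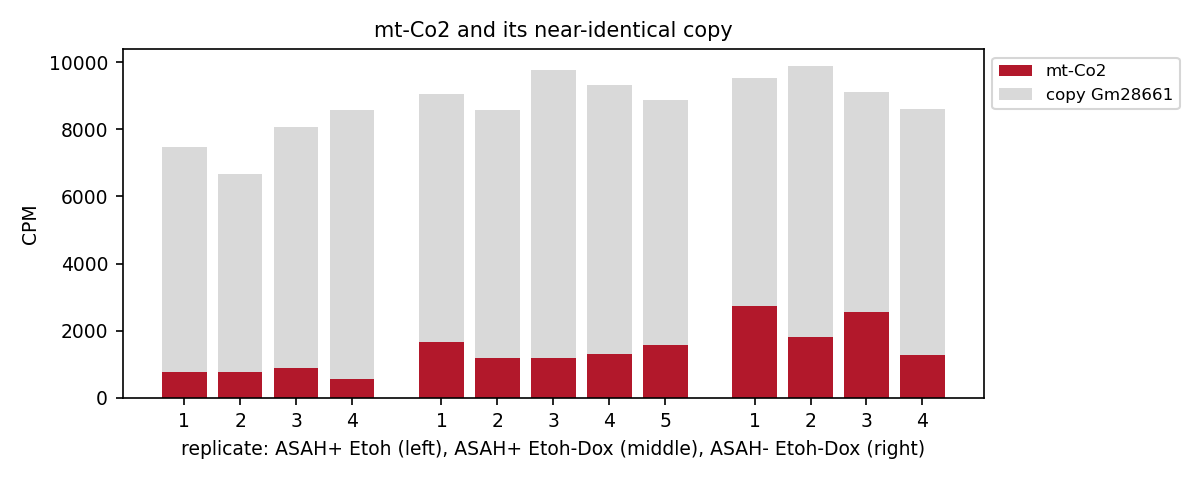
Level (CPM) of mt-Co2 (red) and of Gm28661, which shares 99.5% of the words of mt-Co2 (grey, stacked), in each of 13 mice by group and replicate number. The red part differs more between groups than the full height of the bar.

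Ribosomal protein genes were slightly higher. Of 76 cytosolic ones 63 had a higher mean, beside 7587 of all 14317 genes tested. At an unadjusted p under 0.05, 13 were higher and 0 lower, beside 4.04% and 3.24% of all genes tested. The median log2 fold change was 0.083 (0.13 in the ASAH- mice). Rplp2 and Rpl11 had 0.44 and 0.31. Transcript length also went with the difference across all genes: the median log2 fold change was 0.056 in the fifth of genes with the shortest summed exons (57 to 2167 bases) and -0.036 in the fifth with the longest. Over 12720 protein-coding genes, Spearman's rho of log2 fold change with length was -0.165, across genes, which are not independent. The part of transcript length in the ribosomal genes was not tested.

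Some genes stood out singly. 1810008I18Rik was the nearest to the threshold after Sod1, at 24.9, 25.8, 32.9, 25.5 and 22.2 CPM with Dox and 14.1, 18.01, 15.8 and 12.5 CPM without it (log2 fold change 0.80 ± 0.14, SE; adjusted p = 0.202, edgeR). Id2, an inhibitor of helix-loop-helix factors, was at 58.3, 81.8, 51.2, 71.7 and 82.01 CPM with Dox and 164, 94.1, 105 and 123 CPM without it. It was as low in ASAH- mice on Etoh-Dox, at 51.7, 59.7, 62.5 and 64.6 CPM. Slc39a5, a zinc importer, was at 0.193, 0.18, 0.217, 0.481 and 0.26 CPM with Dox and 1.61, 1.79, 1.11 and 1.27 CPM without it, with a log2 fold change of -2.45 ± 0.51 (SE, adjusted p = 0.346, edgeR; 1.35e-06 by DESeq2 on the 9 mice). Chrna4, a nicotinic acetylcholine receptor subunit, was at 6.24, 7.78, 7.69, 3.53 and 2.38 CPM with Dox and 0.737, 0.325, 0.927 and 1.73 CPM without it. Chrna4 had a log2 fold change of 2.61, and of 1.50 in the ASAH- mice, where Slc39a5 had -1.26. Both genes were at low levels, where counts are few. Yif1b (0.63), Dock8 (0.52), Angptl6 (0.59) and Zfp773 (0.80) were higher without overlap. Sfxn2 (-0.33), Slc6a8 (-0.81) and March6 (-0.35) were lower without overlap. These values are log2 fold changes. In the ASAH- mice, against the same ASAH+ mice on Etoh, they were 0.52, 0.48, 0.58 and 0.34, and -0.11, -0.80 and -0.29. Dock8, Angptl6, Slc6a8 and March6 did not overlap there either. Mup19, a major urinary protein, had -1.45, but all of its words are shared with other Mup genes, and the family sum was 0.691 times its level without Dox, with overlap.

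Few lipid genes differed. Of 24 fatty acid synthesis genes 1 was higher at an unadjusted p under 0.05, and of 23 lipid droplet and lipolysis genes 0 in edgeR and 0 by DESeq2 on the 9 mice. Plin2, the lipid droplet coat protein, was at 554 ± 163 CPM with Dox and 534 ± 115 CPM without it (SD, n = 5 and 4). Fasn and Scd1, of fatty acid synthesis, had log2 fold changes of -0.58 and 0.53, and their regulator Srebf1 of 0.22, each with overlap between the groups. With 1 mouse left out, Fasn ranged from -0.86 to 0.16 and Srebf1 from -0.028 to 0.62. Cd36, a fatty acid transporter, had -0.11, and Ppara, the regulator of fatty acid oxidation, -0.24. Fabp5, a fatty acid binding protein, had 1.12, or 0.73 without mouse 3 with Dox. Of 25 cholesterol synthesis genes 20 had a higher mean, beside 7587 of all 14317 genes tested. At an unadjusted p under 0.05, 3 were higher, beside 4.04% of all genes tested, and edgeR and DESeq2 on the 9 mice called 0. Their median log2 fold change was 0.25 (0.26 in the ASAH- mice), with Mvk at 0.43 and Pmvk at 0.49. Of 21 cytosolic heat shock genes 19 had a lower mean, beside 6730 of all 14317 genes tested. At an unadjusted p under 0.05, 3 were lower, beside 3.24% of all genes tested, Hspa4 (-0.22) and Hsp90ab1 (-0.28) among them.

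The circadian clock genes varied widely among mice. The log2 ratio of Dbp, high late in the light phase, to Arntl, which peaks in the opposite phase, was 6.76, 6.91, -1.66, 0.152 and 2.72 in mice 1 to 5 with Dox and 4.48, 6.14, 5.09 and 1.60 in mice 1 to 4 without it. In ASAH- mice it was -0.962, 6.58, 1.82 and 6.21. Mouse 3 with Dox and mouse 1 of the ASAH- group had more Arntl than Dbp, and the ratio spanned a wider range with Dox than without it. None of the 18 core clock genes passed an unadjusted p under 0.05 in edgeR, and DESeq2 on the 9 mice called 0 of them. Times of tissue collection were not given in the sources used here.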

How the data were processed

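Whole-liver RNA of 13 mice was sequenced from stranded mRNA libraries. The authors quantified reads with salmon (version not given in the sources used here) against GENCODE M19 transcripts (GRCm38.p6) and tximport summed transcripts by gene; what they deposited are estimated counts rounded to whole numbers, not scaled or filtered, for 53392 genes, of which 28557 had counts. Reads that fit several transcripts are divided by estimated abundance, so near-identical genes are uncertain; shared words of 31 bases were counted in GENCODE M21 transcripts, which also gave names and coordinates (53355 identifiers found). All 13 columns matched a mouse and 0 were left over. Titles and descriptions gave opposite Dox status for 9 mice. No authors' test results were used. Totals of 17819486 to 35358711 counts make counting error small except for genes under about 1 CPM.

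Genes passing edgeR's filter over 3 groups (14317) were TMM-normalized and fitted in R 4.3.3 with edgeR 4.0.16 (quasi-likelihood, robust dispersion, 3 group means, all 13 mice), and p-values were adjusted by Benjamini-Hochberg with a threshold of 0.1. Standard errors are the log2 fold change over the square root of F. Exact two-sided permutation used 126 splits of mean log2 CPM (prior count 2), with a smallest p of 0.00794. Lists (52, with 1170 genes, 1168 of them in the table) were described by counts and medians, without a test. The methods were tested on simulated data.

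Named genes were Asah1 and Sod1; calls; the 10 higher and 10 lower genes with the smallest p, mean log2 CPM above 1 and no overlap; the 10 smallest DESeq2 adjusted p besides; up to 2 higher and 2 lower members per list at p under 0.05, and the most abundant member; and Derl3, Sel1l, Apob, Cd36, Ppara, Srebf1, Fasn, Plin2, Dbp and Arntl. The rule gave 147 genes, of which 83 were followed through the alternatives; Otc, Stab2, Cdh5 and other genes named beyond the rule were chosen after their values were seen. Members and lists were chosen with earlier results of these data known. Alternatives were DESeq2 1.42.0 (13 or 9 mice), limma-voom 3.58.1, edgeR on 9 mice, DESeq2 size factors, Asah1 left out of totals, no filter, at least 10 counts in every mouse, no robust dispersion, replicate number as a block, 1 surrogate variable (sva 3.50.0), a covariate of log2 Dbp over Arntl, a threshold of 0.05, and each mouse left out. Replicates are separate mice; no 2 libraries of a group agreed within sampling noise.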

Additional observations from a re-analysis of the deposited data

Results flagged for a closer look

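The level of each of 83 genes, the summed markers of 12 cell types, the share of mitochondrial counts, the log2 ratio of Dbp to Arntl and the total count were examined in each group for 1 mouse far from the rest, taken as a gap to its nearest neighbour, over the group's range, above Dixon's critical value. Of 294 groups examined, 15 held such a mouse. Chance alone gives about 1 in 20 groups, which is near this share.

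Among ASAH+ mice on Etoh-Dox, mouse 1 was highest for Bst2 (129 CPM, gap 0.716 of the range) and Cyp3a13 (234 CPM, 0.873). Mouse 2 was highest for Nkg7 (1.37 CPM, 0.884) and for the summed T and NK markers (6.23 CPM, 0.903), and lowest for Apob (4906 CPM, 0.752). Mouse 3 was highest for Zfp773 (6.21 CPM, 0.875) and lowest for Cps1 (2459 CPM, 0.79). Mouse 4 was highest for Slc39a5 (0.481 CPM, 0.734) and Fasn (695 CPM, 0.779).

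Among ASAH+ mice on Etoh, mouse 1 was lowest for Dock8 (21.5 CPM, 0.941) and Ormdl1 (14.8 CPM, 0.988). Mouse 2 was lowest for Nnmt (72.3 CPM, 0.898), mouse 3 highest for the summed neutrophil markers (2.04 CPM, 0.908) and mouse 4 lowest for Mup19 (331 CPM, 0.836). Among the ASAH- mice, mouse 3 was highest for Ifi27l2a (8.40 CPM, 0.845).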

How the results depend on the processing

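Asah1 and Sod1 stayed called, in the same direction, under all 26 alternatives tried. Over all of them the log2 fold change of Asah1 lay between 7.98 and 8.18, and that of Sod1 between 0.96 and 1.05 with adjusted p of at most 0.0133. The count of called genes was 2 in edgeR; DESeq2 called 95 on 13 mice, after its own filter left 3198 genes with an adjusted p, and 113 on the 9 ASAH+ mice. Without a count filter 4 genes were called, 1810008I18Rik and Mat1a being added, and 3 by edgeR on the 9 mice (Slc39a5 added) and with 1 surrogate variable (Kynu added). With 1 mouse left out, the log2 fold change of Asah1 ranged from 8.0 to 8.18 and that of Sod1 from 0.96 to 1.05, and the count from 2 to 8. It was 8 without ASAH+ mouse 2 on Etoh, when Mat1a, Sult1d1, 1810008I18Rik, Serpina3n, Slc10a1 and Cavin2 were added, and 3 without ASAH+ mouse 2 on Etoh-Dox (Dock8 added) or without ASAH- mouse 4 (Slc39a5 added). The cause of these differences was not tested.

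Same-numbered mice with and without Dox correlated by 0.108, 0.017, -0.088 and 0.19 in their deviations from the group means (mean 0.057, other pairs -0.014), so the numbers do not pair the mice. In a block by replicate number, 2 genes were called, Asah1 and Sod1 again.

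Of 2126 values of single genes under the alternatives, 77 passed the threshold that the gene had missed, among them 40 by DESeq2 on 9 mice and 27 by DESeq2 on 13, and 14 changed sign, in 9 genes that were not called. Asah2 was 0.016 with the block and Arntl -0.082 with the covariate of Dbp to Arntl. With 1 mouse left out, P4hb ranged from -0.093 to 0.046, Asah2 from -0.059 to 0.013, Alb from -0.14 to 0.011, Cd36 from -0.27 to 0.066, Srebf1 from -0.028 to 0.62, Fasn from -0.86 to 0.16, Plin2 from -0.14 to 0.18, and Dbp from -0.62 to 0.001. Other values that 1 mouse moved by over 1.5 times kept their sign. Without ASAH+ mouse 2 on Etoh, Iigp1 was 0.39, mt-Co1 -0.2 and Cyp2e1 -0.091; without mouse 1 on Etoh, Iigp1 was 0.14, Herpud1 0.099, Ppara -0.16 and Scd1 0.32; without mouse 4 on Etoh, Arntl was 1.85. Without ASAH+ mouse 3 on Etoh-Dox, Iigp1 was 0.11, Sel1l 0.043 and Fabp5 0.73; without mouse 2 on Etoh-Dox, Sel1l was 0.14 and Nkg7 0.45; without mouse 4 on Etoh-Dox, Arntl was 0.73; without mouse 5 on Etoh-Dox, Herpud1 was 0.12. The cause was not tested. Of 1092 list medians under the alternatives, 1 moved by more than 1 SD between mice and 40, of 11 lists, changed sign; these include glucose handling, NRF2 targets, sphingolipid enzymes, autophagy, lysosome and core clock. The urea cycle, sinusoidal endothelial, interferon, antigen presentation, ER chaperone and red cell lists were not among them. Depth limits genes near 1 CPM, such as Slc39a5 and Derl3 without Dox.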
